A study of Rattus norvegicus with 40 samples.

Results

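The amygdala libraries of rats exposed to a blast were compared with those of rats given a sham exposure, both taken 12 months after the exposure. They are 10 of the 40 libraries of the series, 5 blast and 5 sham, and were chosen by the tissue and treatment labels of the table of amygdala read counts. The series holds the same pair of groups for hippocampus, anterior cortex and cerebellum. Total RNA was made into libraries and sequenced, and the authors counted reads per gene. The blast libraries are Amy_4, Amy_8, Amy_22, Amy_88 and Amy_666 and the sham libraries Amy_11, Amy_13, Amy_14, Amy_15 and Amy_33, and values are given below in that order. The sham library Amy_13 of the table has Amy_12 in its label, so it was placed in the sham group and tied to no label of its own. The sources used here do not give strain, sex, age, blast pressure or the dissection, and no transgene or drug is named for either group. Nothing ties a number to an animal, so p-values measure only the spread between these samples.

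The amygdala is a group of nuclei in the temporal lobe that links sensory cues to fear, anxiety and autonomic responses. Its basolateral nuclei hold mainly glutamatergic neurons of cortical type, while its central and medial nuclei and the intercalated cell masses hold mainly GABAergic neurons, many of which make neuropeptides such as somatostatin. Stress hormones act on it through glucocorticoid and mineralocorticoid receptors.

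The mean over the genes listed for the central and medial amygdala was highest in the libraries labelled amygdala, close to that of anterior cortex. Over 17 such genes the sham libraries had a mean log2 CPM (reads of a gene scaled to a common library total) of 3.10 ± 0.15 in amygdala (SD, n = 5), against 2.08 ± 0.11 in hippocampus, 2.85 ± 0.20 in anterior cortex and 1.23 ± 0.15 in cerebellum. Of the 17, 7 had their highest mean in amygdala (Sst, Lhx6, Penk, Crh, Cartpt, Esr1 and Sim1) and 10 in another region. The 10 genes listed for the basolateral nuclei were at 6.20 ± 0.12 in amygdala and 6.88 ± 0.055 in hippocampus, and the intercalated cell list was at 4.10 ± 0.17 in amygdala and 4.52 ± 0.37 in anterior cortex. All 16 genes of meningeal fibroblasts were highest in amygdala. The hypothalamus list was also highest there, at 0.064 ± 0.57, against -0.38 ± 0.50 in hippocampus, -1.33 ± 0.69 in anterior cortex and -0.94 ± 0.11 in cerebellum. Of its 11 genes 7 were highest in amygdala, among them Oxt, Avp, Pomc and Sim1, which the central and medial list shares. The thalamus list stood at 4.15 ± 0.087 in amygdala and 4.02 ± 0.17 in anterior cortex. Library totals ran from 14021865 to 15736432 counts in blast and from 12653267 to 16433786 in sham amygdala, with 19489 to 19974 genes at 1 count or more in blast and 18950 to 19509 in sham.

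No gene differed between blast and sham amygdala at an adjusted p under 0.05, so no single difference below passed the test across all genes. edgeR's quasi-likelihood test with Benjamini-Hochberg adjustment called 0 of 15280 genes (0%), and its smallest adjusted p was 0.132. At an unadjusted p under 0.05 there were 1325 genes (8.67%), 645 of them higher in blast (4.22% of those tested) and 680 lower (4.45%). All 5 blast libraries lay above all 5 sham libraries for 120 genes (0.785%) and below them for 112 (0.733%). The fold changes were even in direction, with 7595 genes higher and 7685 lower and a median log2 fold change of -0.00100. DESeq2 called 6 genes on the same counts, named further on, and limma voom called 0. The biological coefficient of variation was 14.6% in edgeR's common estimate.

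Atox1 (chromosome 10) led the genes higher in blast when ordered by p. It encodes the copper chaperone that hands copper to the ATPases of the secretory pathway. Atox1 had 22.5, 27.9, 21.3, 24.2 and 20.2 CPM in blast and 17.4, 15.8, 14.1, 15.9 and 14.3 CPM in sham. Every blast library was above every sham library, and the lowest blast value stood at 20.2 CPM. The log2 fold change was 0.58 ± 0.10 (SE; unadjusted p = 4.56e-05, edgeR adjusted p = 0.288), and it stayed between 0.51 and 0.63 when any 1 of the 10 libraries was left out.

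Cstb (chromosome 20) encodes cystatin B, an inhibitor of lysosomal cysteine proteases whose loss causes a progressive myoclonic epilepsy in humans. It had 27.8, 32.3, 31.4, 30 and 34.3 CPM in blast and 26.3, 21.6, 19.3, 20.9 and 22.5 CPM in sham. The groups did not overlap, although sham library Amy_11 came close to blast library Amy_4, and the log2 fold change was 0.49 ± 0.088 (edgeR adjusted p = 0.288). DESeq2 called this gene at an adjusted p of 0.00222. Shisa3 (chromosome 14), whose product holds back maturation of Wnt and FGF receptors, had 10.1, 6.73, 5.37, 4.92 and 7.79 CPM in blast and 3.91, 2.20, 2.49, 3.14 and 1.77 CPM in sham. Again all blast values exceeded all sham values, with a log2 fold change of 1.38 ± 0.25 (edgeR adjusted p = 0.288).

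**Figure D1:**
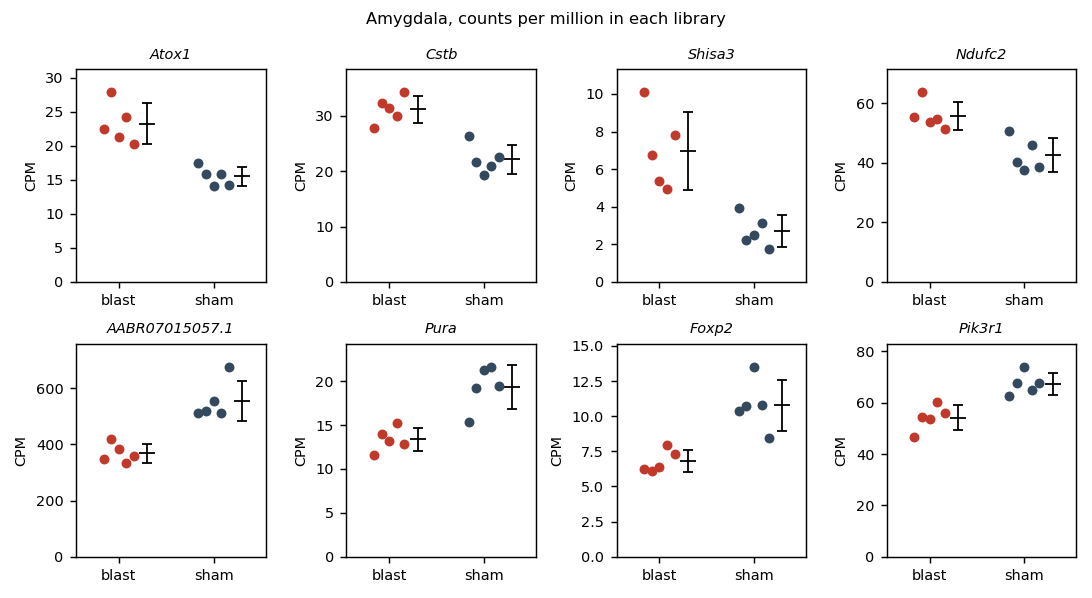
CPM of 8 genes in each amygdala library, blast left and sham right. Points are libraries, and the bar beside them is the mean with the SD of 5 libraries. The first row holds genes higher in blast, such as Shisa3 at 6.99 ± 2.09 CPM in blast and 2.70 ± 0.839 in sham, and the second row genes lower in blast. The 8 were picked from the 15 genes with the smallest p in each direction, and in all 8 the groups did not overlap. Exoc7, AABR07063425.2 and Wdr54, whose groups overlapped, had a smaller p than some of the genes shown and were left out.

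Other genes higher in blast were among the 15 with the smallest p. Prdx3, the peroxide-removing peroxiredoxin of the mitochondrial matrix, had 50, 47.3, 46.9, 47.2 and 48.3 CPM in blast and 40.3, 38, 37.7, 44.5 and 39.2 CPM in sham. Its groups were apart by a narrow margin and the log2 fold change was 0.26 ± 0.062. Efemp1, an extracellular matrix glycoprotein of the fibulin family, averaged 22.5 ± 5.44 CPM in blast and 12.7 ± 3.89 CPM in sham (SD, n = 5), with blast library Amy_88 at 16.6 CPM below sham library Amy_33 at 18.5 CPM. The heparan sulfate proteoglycan gene Gpc3 averaged 15.3 ± 1.39 CPM in blast and 11 ± 1.45 in sham and its groups did not overlap. Both matrix genes had an edgeR adjusted p of 0.459, with log2 fold changes of 0.82 ± 0.20 for Efemp1 and 0.48 ± 0.11 for Gpc3. N6amt1, a methyltransferase gene, was also apart at 0.61 ± 0.14. Exoc7, which encodes a subunit of the exocyst complex that tethers secretory vesicles, was at 1.45 ± 0.32 and overlapped only through sham library Amy_33, at 7.28 CPM against a lowest blast value of 6.17 CPM.

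The smallest p of all belonged to a predicted protein-coding gene without a functional name, AABR07015057.1 (ENSRNOG00000060518), at bases 46523594 to 46529375 of chromosome 14 in the authors' table, for which the sources used here name no genome build. It had 348, 420, 384, 335 and 357 CPM in blast and 511, 520, 554, 511 and 675 CPM in sham. The groups were far apart, with the highest blast library at 420 CPM and the lowest sham library at 511 CPM, and the log2 fold change was -0.59 ± 0.086 (edgeR adjusted p = 0.132). In the authors' deposited table the gene was called at an adjusted p of 5.00e-08.

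Its neighbours on the same stretch of chromosome 14 were looked at after its value was seen. Between 46329996 and 46657975 lay 7 other tested genes, of which 6 were lower in blast, 4 of these at an unadjusted p under 0.05. Over all genes 4.45% were lower at that level. AABR07015066.1, named after its value was seen, was higher at 0.47 ± 0.48. AABR07015081.1, annotated as a miRNA gene of 57 bases, was at -0.56 ± 0.14, AABR07015079.1, of 49 bases, at -0.47 ± 0.11, and the protein-coding AABR07015081.2 at -0.41 ± 0.11, all with overlapping groups. By their coordinates AABR07015081.1 and AABR07015080.1 lie inside AABR07015081.2, so the count of lower neighbours takes in nested annotations. Reads of neighbours that overlap or resemble each other could be shared by the counting, and the names give no function. The short miRNA annotations were counted here in libraries of total RNA and are not measurements of a mature miRNA. The same holds for AABR07063425.2, a miRNA annotation of 57 bases on chromosome 6, at 159, 149, 175, 155 and 142 CPM in blast and 214, 222, 211, 169 and 243 CPM in sham (-0.44 ± 0.087).

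Among known genes lower in blast, Pura, a single-stranded nucleic acid binding protein that acts in dendritic RNA transport, had 11.6, 14, 13.2, 15.2 and 12.8 CPM in blast and 15.3, 19.2, 21.3, 21.6 and 19.4 CPM in sham. The groups touched without overlap, at 15.2 CPM in blast library Amy_88 and 15.3 CPM in sham library Amy_11, and the log2 fold change was -0.54 ± 0.11 (edgeR adjusted p = 0.459). Foxp2, the forkhead transcription factor that marks intercalated cells of the amygdala and neurons of striatum and deep cortical layers, had 6.26, 6.10, 6.41, 7.92 and 7.28 CPM in blast and 10.4, 10.7, 13.5, 10.8 and 8.48 CPM in sham. All 5 blast libraries were below the lowest sham library, at -0.66 ± 0.14 (edgeR adjusted p = 0.459). Pik3r1 encodes the regulatory subunit p85 alpha of phosphoinositide 3-kinase and averaged 54.1 ± 4.95 CPM in blast and 67.4 ± 4.22 CPM in sham (SD, n = 5; -0.32 ± 0.073), again without overlap. Wdr54 had a wide log2 fold change of -1.39 ± 0.28, and sham library Amy_13 stood at 5.30 CPM amid blast values of 4.73 to 6.31 CPM while the other 4 sham libraries ran from 13.3 to 23.8 CPM. Without sham library Amy_13 Wdr54 passed the test, at -1.61 and an edgeR adjusted p of 0.00462.

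The nuclear genes of the mitochondrial respiratory chain and ATP synthase leaned together to the blast side. The chain is built of complexes I to IV, which move electrons from nutrients to oxygen and pump protons, and ATP synthase turns the proton gradient into ATP. Of 77 nuclear members tested, 71 were higher in blast, and the median log2 fold change was 0.13, against -0.00100 over all genes. At an unadjusted p under 0.05, 27 were higher (35.1% of the members, against 4.22% of all genes) and 0 lower. Of protein-coding genes of 138 to 1410 bases, which are short like these, 8.97% were higher at that level. The groups did not overlap for 5 members, all with blast above sham, as for 0.785% of all genes.

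Complex IV, cytochrome oxidase, had the highest median, at 0.28 over 12 members. Of these 11 were higher, 8 of them at an unadjusted p under 0.05 (66.7% of the list, against 4.22% of all genes). Cox7b, a small structural subunit, had 67.7, 74.4, 64.0, 59.2 and 65.3 CPM in blast and 56.8, 53.3, 39.8, 55.7 and 48.4 CPM in sham. Its lowest blast library, Amy_88, was just above its highest sham library, Amy_11, and the log2 fold change was 0.38 ± 0.094. Cox5a, which takes part in the allosteric control of the enzyme by ATP, was at 0.26 ± 0.088 with overlapping groups. Cox6b1, a subunit at the dimer interface, appears under 2 gene IDs, at 0.29 ± 0.10 on chromosome 1 and 0.40 ± 0.13 on chromosome 2, and reads could be split between these near-identical copies.

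ATP synthase members had a median of 0.20 (0.13 without blast library Amy_8), with 14 of 15 higher. At an unadjusted p under 0.05, 6 of them were higher (40%, against 4.22% of all genes). Atp5mc1 and Atp5mc3, both of which encode the c subunit of the rotor ring, were at 0.33 ± 0.12 and 0.24 ± 0.084, and Atp5f1e, the epsilon subunit of the catalytic head, at 0.31 ± 0.11. In each of these 3 genes sham library Amy_11 lay within the blast range. Complexes II and III, succinate dehydrogenase and the cytochrome bc1 complex, had a median of 0.13, with 14 of 15 higher. Of these, 7 had an unadjusted p under 0.05 (46.7% of the list, against 4.22% of all genes). Uqcr10, a small subunit of complex III, had 45.4, 54.5, 43.3, 42.3 and 48.3 CPM in blast and 44.2, 33, 28.9, 37.7 and 38.1 CPM in sham, where library Amy_11 alone reached the blast values (0.36 ± 0.11).

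In complex I, NADH dehydrogenase, 33 of 36 members were higher, with a median of 0.090 (0.059 without blast library Amy_8). At an unadjusted p under 0.05, 7 were higher (19.4%, against 4.22% of all genes). Ndufc2, a membrane arm subunit, had 55.3, 63.7, 53.7, 54.6 and 51.4 CPM in blast and 50.7, 40.3, 37.5, 45.9 and 38.4 CPM in sham, and all blast libraries exceeded all sham libraries (0.39 ± 0.090). Ndufa3 at 0.49 ± 0.13 and Ndufa11 at 0.23 ± 0.064 were likewise without overlap, and Ndufs5 at 0.26 ± 0.090 overlapped. Ndufa4, which was first taken for a complex I subunit and is now placed in cytochrome oxidase, counted in both lists and was at 0.30 ± 0.10.

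Scores per library show that the groups overlapped over the whole list. The score, the mean log2 CPM of the 77 members centred over the 10 libraries, was 0.080, 0.30, 0.0012, -0.0086 and 0.047 in blast and 0.11, -0.11, -0.15, -0.052 and -0.22 in sham. Blast library Amy_8 was the highest of all, and sham library Amy_11 was above 4 of the 5 blast libraries. Leaving out any 1 library kept the list median between 0.10 and 0.17.

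Fold changes over all protein-coding genes varied with annotated gene length, and the respiratory genes are short, with a median of 705 bases. Among protein-coding genes, the shortest of 5 equal bins, of 138 to 1410 bases, was higher in blast in 63.4% of cases with a median of 0.061, and the longest bin, of 4088 to 28192 bases, in 32.5% with a median of -0.049. This slope differed between single libraries: the shortest bin minus the longest bin, on the log2 scale, was 0.041, 0.13, 0.060, -0.060 and 0.068 in blast and 0.082, -0.074, -0.17, -0.056 and -0.024 in sham. At an unadjusted p under 0.05, 8.97% of the shortest bin were higher and 2.39% lower. In the longest bin 1.39% were higher and 7.65% lower at that level. The shares over all genes given beside each list do not allow for length. With the trend with length removed from each library, 61 of the 77 respiratory genes were higher and their median was 0.091. The median of complex IV was then 0.22, that of ATP synthase 0.16 and that of complexes II and III 0.091. Complex I fell to a median of 0.062, with 25 of 36 members higher. Length was not tested as a cause of the respiratory genes' fold changes.

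**Figure D2:**
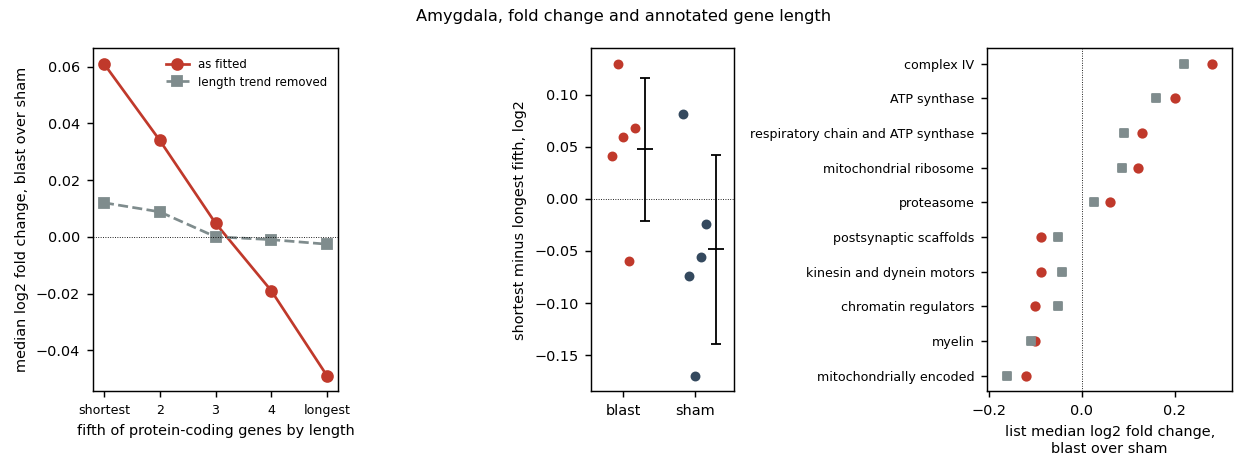
Left, median log2 fold change of blast over sham in 5 bins of protein-coding genes by annotated length, as fitted (circles) and with the length trend of each library removed (squares). Middle, the difference between the shortest and the longest bin in each library, with mean and SD of 5 libraries, blast left of sham. Right, medians of 10 gene lists before (circles) and after (squares) that removal: complex IV was at 0.28 before and 0.22 after, and postsynaptic scaffolds at -0.087 before and -0.052 after.

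The promoters of the respiratory genes were searched for a motif because these genes leaned the same way in 4 complexes. NRF1, a transcription factor named for its part in the expression of nuclear respiratory genes, is known to bind a GC-rich palindrome, searched here on both strands as GCGC, an A, any base and GCGC again. Promoters of 250 bases before to 50 bases after the annotated start came from RefSeq (build GRCr8) and were matched by symbol for 65 of the 77 genes. The motif was in 13 of these 65 (20%) and in 4.25% of all 33469 promoters of that length. Only symbols with 1 promoter were matched, while the 4.25% counts every promoter of that length, so these shares are of unlike sets. The same holds for the motifs searched further on. The motif was also in 7 of 53 promoters of mitochondrial ribosome genes (13.2%), a list described below. By complex it was in 6 of 32 promoters of complex I (18.8%), 2 of 11 of complexes II and III (18.2%), 5 of 14 of ATP synthase (35.7%) and 0 of 9 of complex IV, the group with the highest median fold change. Of the members named above, Atp5mc3 (chr3:79220615-79220914, minus strand), Ndufa11 (chr9:1637364-1637663, plus strand) and Ndufs5 (chr5:141264353-141264652, minus strand) are shown, each 5′ to 3′ along the gene with the motif in capitals, and the 2 matches in Ndufa11 overlap each other.
Atp5mc3: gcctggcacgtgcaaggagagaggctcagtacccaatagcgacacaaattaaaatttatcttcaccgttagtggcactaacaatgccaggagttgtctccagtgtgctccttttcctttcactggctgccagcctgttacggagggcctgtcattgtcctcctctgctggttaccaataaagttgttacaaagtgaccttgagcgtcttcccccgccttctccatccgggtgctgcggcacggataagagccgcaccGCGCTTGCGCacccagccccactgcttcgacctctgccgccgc
Ndufa11: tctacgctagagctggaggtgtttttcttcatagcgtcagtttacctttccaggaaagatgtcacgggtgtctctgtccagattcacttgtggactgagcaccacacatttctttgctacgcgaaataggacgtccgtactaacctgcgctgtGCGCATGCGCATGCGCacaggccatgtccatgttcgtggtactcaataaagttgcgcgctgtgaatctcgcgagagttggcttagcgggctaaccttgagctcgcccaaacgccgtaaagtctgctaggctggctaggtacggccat
Ndufs5: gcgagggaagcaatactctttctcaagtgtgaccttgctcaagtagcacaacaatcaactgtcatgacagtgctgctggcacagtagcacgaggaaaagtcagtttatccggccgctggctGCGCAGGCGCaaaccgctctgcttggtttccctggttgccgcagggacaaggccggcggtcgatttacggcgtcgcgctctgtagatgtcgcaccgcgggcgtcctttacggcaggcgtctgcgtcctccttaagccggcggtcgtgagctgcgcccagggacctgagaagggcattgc
These matches describe the letters of the windows, and no measurement of factor binding was made.

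The subunits encoded by mitochondrial DNA leaned the other way. Of 13 mitochondrial mRNAs 11 were lower in blast, 2 at an unadjusted p under 0.05 (15.4%, against 4.45% of all genes) and 0 higher at that level, with a median of -0.12 that was -0.053 without sham library Amy_33. Mt-atp8, an ATP synthase subunit, had 115, 118, 154, 136 and 126 CPM in blast and 131, 177, 171, 142 and 176 CPM in sham (-0.30 ± 0.10), and Mt-nd6 of complex I was at -0.25 ± 0.10. The groups overlapped in both. Of the mitochondrial ribosomal RNAs, which were chosen for mention after their values were seen, the large one, AY172581.24 in the table, had 6168, 6989, 8017, 7054 and 7948 CPM in blast and 8184, 8286, 9422, 8046 and 10795 CPM in sham. Its groups did not overlap, by a margin of 8017 in blast against 8046 in sham (-0.31 ± 0.093, edgeR adjusted p = 0.459). The median of the mitochondrial mRNAs was -0.16 with the length trend removed, and 0 of 13 were then higher.

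Proteins of the mitochondrial ribosome, which are nuclear genes and translate the mitochondrial mRNAs, were higher in 64 of 70 cases, with a median of 0.12. At an unadjusted p under 0.05, 13 were higher (18.6%, against 4.22% of all genes) and 1 lower (1.43%, against 4.45%). With the length trend removed 56 of 70 were higher (median 0.086). Mrpl16, a protein of the large subunit, had 19.6, 18.9, 18, 18.1 and 17.1 CPM in blast and 15.8, 14.1, 15.8, 13.5 and 14.5 CPM in sham, without overlap (0.31 ± 0.084). Mrps12 at 0.32 ± 0.092 and Mrps17 at 0.28 ± 0.090, both of the small subunit, were also apart. Mrpl1 had the widest fold change of the list, 1.15 ± 0.31, at low levels of 2.32, 2.67, 1.81, 4.09 and 4.28 CPM in blast and 0.860, 2.12, 1.71, 1.14 and 1.01 CPM in sham. The proteins of the cytosolic ribosome did not share that lean: 30 of 76 were higher and the median was -0.040 (-0.012 without blast library Amy_4 and -0.072 without sham library Amy_15). Their genes are also short, with a median of 633 bases, and with the length trend removed 18 of 76 were higher (median -0.079). Rpl3, of the large subunit, was at -0.15 ± 0.054 without overlap.

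Genes of copper handling and antioxidant defence were more often higher than lower. Of 15 copper and metallothionein genes 11 were higher (median 0.11, or 0.20 without blast library Amy_88). At an unadjusted p under 0.05, 2 were higher (13.3%, against 4.22% of all genes), Atox1 and Mt3. Mt3, the brain metallothionein that binds zinc and copper, had 221, 269, 214, 168 and 233 CPM in blast and 200, 181, 140, 157 and 153 CPM in sham, with only blast library Amy_88 inside the sham range (0.41 ± 0.12). Of 27 antioxidant genes 20 were higher (median 0.084, or 0.049 without blast library Amy_4). At an unadjusted p under 0.05, 3 were higher (11.1%, against 4.22% of all genes). Besides Prdx3 these were Txn1, thioredoxin, at 0.28 ± 0.089 and Glrx, glutaredoxin, at 0.22 ± 0.073, the second with groups apart.

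Protein turnover genes gave a mixed picture. Of 38 proteasome genes 26 were higher with a median of 0.061. At an unadjusted p under 0.05, 8 were higher (21.1%, against 4.22% of all genes) and 3 lower (7.89%, against 4.45%). With the length trend removed 23 were higher and the median was 0.026. Psmb2, a subunit of the catalytic core, was at 0.25 ± 0.071 with groups apart and Psmb9, a subunit of the immunoproteasome, at 0.56 ± 0.22, whereas Psmc5, an ATPase of the regulatory cap, was at -0.22 ± 0.078. The vacuolar proton pump, which acidifies lysosomes and synaptic vesicles, had 17 of 22 members higher and a median of 0.077. Atp6v0c, the rotor subunit of its membrane part, had 750, 767, 662, 714 and 685 CPM in blast and 657, 596, 572, 645 and 559 CPM in sham, without overlap (0.24 ± 0.064). Atp6v1g2, a brain isoform of the stalk, was at 0.23 ± 0.086 and overlapped.

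**Figure D3:**
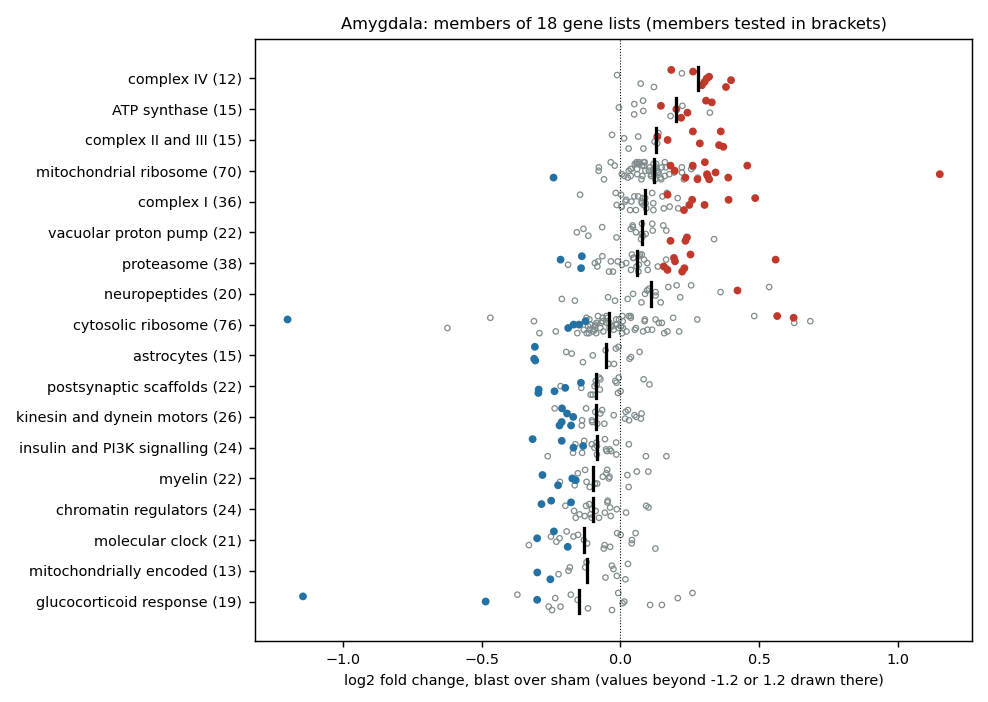
Log2 fold change of blast over sham for each tested member of 18 gene lists, with the number of members in brackets. Filled points have an unadjusted p under 0.05 (red higher, blue lower), open points do not, and the black bar is the list's median. Complex IV has the highest median (0.28) and the glucocorticoid response list the lowest (-0.15).

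Postsynaptic scaffold, motor and chromatin genes, which have long transcripts, were mostly lower in blast. Of 22 postsynaptic scaffold genes 19 were lower, 5 at an unadjusted p under 0.05 (22.7%, against 4.45% of all genes) and 0 higher at that level, with a median of -0.087. Shank2, a master scaffold of glutamatergic spines, had 39.2, 39.4, 40.2, 44.9 and 39.4 CPM in blast and 49.8, 46.3, 51.3, 45.3 and 56.6 CPM in sham. Its groups did not overlap, with blast library Amy_88 just under sham library Amy_15 (-0.30 ± 0.073, edgeR adjusted p = 0.459). Shank1 at -0.29 ± 0.13, the anchoring guanylate kinase Dlg2 at -0.24 ± 0.091, Dlgap3 at -0.20 ± 0.070 and Dlg4, which encodes PSD-95, at -0.14 ± 0.059 all had overlapping groups. In the presynaptic release list, where 20 of 34 were lower, the median was -0.051, and it was -0.011 with 16 of 34 higher once the length trend was removed and 0.0012 without sham library Amy_14. Its complexins, clamps of vesicle fusion, lay on both sides, Cplx2 at -0.32 ± 0.092 and Cplx1 at 0.14 ± 0.067, as did the release factors Rims3 at -0.39 ± 0.15 and Unc13b at 0.15 ± 0.071.

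Motors and their tracks were lower in 18 of 26 cases, 6 at an unadjusted p under 0.05 (23.1%, against 4.45% of all genes), with a median of -0.087. They included the axonal kinesins Kif5a at -0.19 ± 0.071 and Kif1a at -0.22 ± 0.085, and Map1a, a microtubule-associated protein of dendrites, at -0.21 ± 0.076. Chromatin regulators were lower in 21 of 24 cases with a median of -0.10, 3 at an unadjusted p under 0.05 (12.5%, against 4.45% of all genes): Crebbp, a histone acetyltransferase, at -0.25 ± 0.092, Hdac5, a deacetylase, at -0.18 ± 0.061, and Chd3, a remodeller of the NuRD complex, at -0.28 ± 0.074. The median lengths of the 3 lists were 4073, 5640.5 and 6087.5 bases. Of protein-coding genes of 2841 to 4087 bases 5.33% were lower at an unadjusted p under 0.05, and of those of 4088 to 28192 bases 7.65%. With the length trend removed their medians were -0.052, -0.043 and -0.051 and 6, 10 and 8 of their members were higher. Without sham library Amy_14 the medians were -0.047 for scaffolds, -0.053 for motors and -0.041 for chromatin regulators.

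Insulin and PI3K signalling genes were lower in 21 of 24 cases, 4 at an unadjusted p under 0.05 (16.7%, against 4.45% of all genes), with a median of -0.086 that was -0.084 after the length trend was removed and -0.13 without blast library Amy_88. Beside Pik3r1, its relative Pik3r2 had 198, 178, 195, 199 and 185 CPM in blast and 209, 204, 223, 199 and 213 CPM in sham, without overlap at more decimals (-0.13 ± 0.054). Tsc1, which restrains mTOR, was at -0.17 ± 0.062 with overlapping groups. From the neurotrophin list, Igf1r, the receptor of insulin-like growth factor, was at -0.30 ± 0.089, and Fndc5, the precursor of irisin, had 94.9, 95.3, 95.7, 103 and 103 CPM in blast and 106, 116, 130, 113 and 112 CPM in sham, with groups apart (-0.23 ± 0.061).

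Myelin, astrocyte and vascular genes were more often lower than higher, by small amounts. In bulk tissue, fewer cells of a type and less RNA per cell cannot be told apart. Of 22 myelin genes 18 were lower, 4 at an unadjusted p under 0.05 (18.2%, against 4.45% of all genes), with a median of -0.10 that was -0.055 without sham library Amy_13. Mobp, a protein of compact myelin, had 252, 211, 274, 250 and 249 CPM in blast and 282, 324, 301, 274 and 322 CPM in sham, where the highest blast and the lowest sham library met at 274 CPM (-0.28 ± 0.073). Bcas1, an early myelination gene, was at -0.17 ± 0.072. Oligodendrocyte precursor genes were lower in 9 of 10 cases (median -0.091, or -0.047 without blast library Amy_8), with the lineage factor Olig1 at -0.16 ± 0.057.

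Astrocyte genes were lower in 12 of 15 cases, 3 at an unadjusted p under 0.05 (20%, against 4.45% of all genes), with a median of -0.053. Glul, glutamine synthetase, Slc1a2, the main glutamate transporter of astrocytes, and Sox9, an astrocyte transcription factor, were all at -0.31, with SEs of 0.11, 0.12 and 0.12. Sham library Amy_33 was the highest library for all 3, and without it the list median was 0.015. The astrocyte score was -0.071, -0.15, 0.042, -0.19 and 0.12 in blast and -0.11, 0.022, 0.084, -0.11 and 0.35 in sham, so that library Amy_33 alone stood high. Microglial genes were split evenly, 9 higher and 9 lower of 18, with a median of -0.0075. Endothelial genes were lower in 9 of 14 cases (median -0.091, but 0.019 without sham library Amy_33), with the glucose transporter Slc2a1 at -0.26 ± 0.091 and the angiopoietin receptor Tek at -0.24 ± 0.10, and pericyte and smooth muscle genes in 9 of 11 (median -0.13, but -0.025 without the same library), with Abcc9, a potassium channel regulator of pericytes, at -0.35 ± 0.15.

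Choroid plexus genes differed far more between libraries than between groups. Of 16 such genes 13 were lower in blast with a median of -0.74, and 0 had an unadjusted p under 0.05. The median was -1.33 without blast library Amy_22 and -0.34 without sham library Amy_13. Kl, klotho, had 10.1, 1.54, 17.3, 1.47 and 2.30 CPM in blast and 19.1, 26.8, 0.777, 16.9 and 9.88 CPM in sham. The list's score was 0.69, -1.27, 1.23, -1.18 and -1.21 in blast and 1.06, 1.38, -1.71, 0.68 and 0.33 in sham, so blast libraries Amy_4 and Amy_22 and sham libraries Amy_11, Amy_13, Amy_15 and Amy_33 were high and blast libraries Amy_8, Amy_88 and Amy_666 and sham library Amy_14 low. Genes of meningeal fibroblasts were higher in 12 of 16 cases, with a median of 0.16 that was 0.044 without blast library Amy_22 and 0.35 without sham library Amy_33. Slc47a1, an organic cation transporter of the meninges, had 6.65, 4.28, 5.37, 4.54 and 6.71 CPM in blast and 3.99, 3.10, 3.11, 1.43 and 3.55 CPM in sham, without overlap (0.86 ± 0.24), while the score of the whole list overlapped, at 0.31, -0.23, 0.58, -0.35 and 0.26 in blast and -0.17, -0.19, -0.15, -0.50 and 0.45 in sham. Whether these neighbouring tissues had a part in other differences was not tested.

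**Figure D4:**
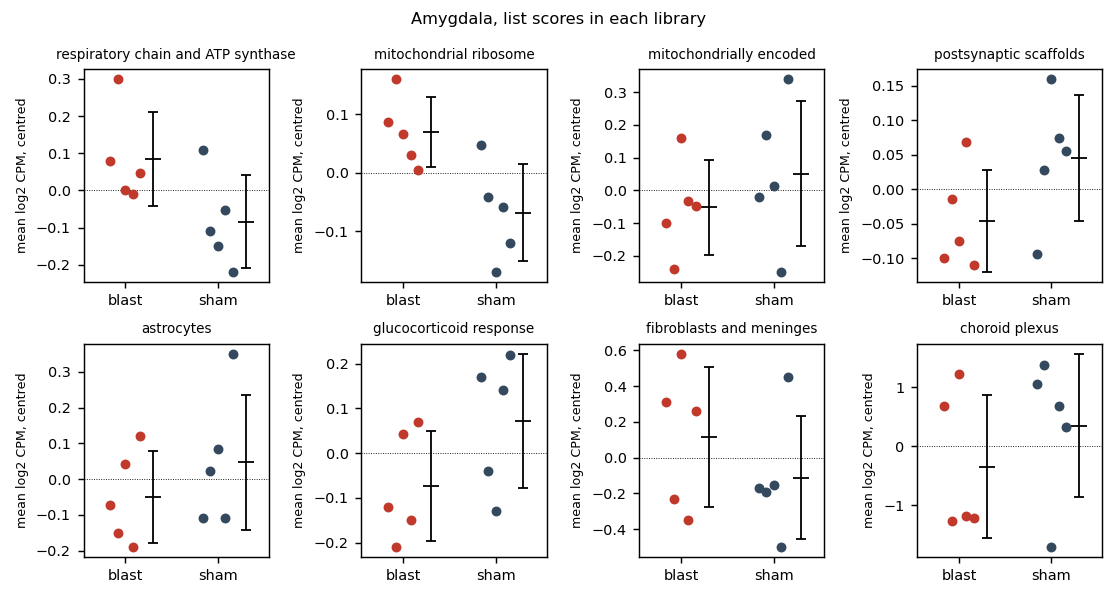
Scores of 8 gene lists in each amygdala library, blast left and sham right, as the mean log2 CPM of the members centred over the 10 libraries. Points are libraries and the bar beside them is the mean with the SD of 5 libraries. The groups overlapped in all 8 panels, and the choroid plexus score ran from -1.27 to 1.23 in blast and from -1.71 to 1.38 in sham.

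Genes of broad neuronal classes showed no common shift, while cortical layer, intercalated cell and striatal genes were more often lower. Pan-neuronal genes were higher in 7 of 15 cases (median -0.019), glutamatergic neuron genes in 5 of 11 (median -0.0061) and GABAergic neuron genes in 6 of 12 (median -0.0056). The basolateral list was higher in 6 of 10 cases and the central and medial list in 8 of 17, with medians of 0.047 and -0.0092. Cortical layer genes were lower in 7 of 10 cases (median -0.13). At an unadjusted p under 0.05, 2 of these were lower (20%, against 4.45% of all genes), Foxp2 and Cux2, the second at -0.25 ± 0.085. With the length trend removed the median of the cortical layer list was -0.092 and 4 of its 10 genes were higher. Intercalated cell genes were lower in 7 of 8 cases (median -0.14, or -0.082 without sham library Amy_14), Foxp2 among them and Tshz1 at -0.16 ± 0.083, and the 10 striatal genes were all lower (median -0.12, or -0.076 without that library). Rgs9, which shortens G protein signals in striatal neurons, was the only striatal gene at an unadjusted p under 0.05, at 13.5, 15.9, 11, 14.5 and 12.3 CPM in blast and 20.6, 17.0, 13.4, 16.3 and 18.7 CPM in sham (-0.36 ± 0.13). The striatal score was highest in sham libraries Amy_11 and Amy_14, at 0.49 and 0.31, and blast library Amy_8 followed at 0.22.

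Of 20 neuropeptide genes 16 were higher in blast, with a median of 0.11 that was 0.18 without sham library Amy_11. At an unadjusted p under 0.05, 1 was higher (5%, close to the 4.22% of all genes), Sst, somatostatin. It had 113, 134, 96.3, 112 and 105 CPM in blast and 121, 76.2, 56.0, 94.1 and 71.2 CPM in sham. Sham library Amy_11 lay among the blast libraries and the other 4 lay below all of them (0.42 ± 0.16, unadjusted p = 0.0202, edgeR adjusted p = 0.517). Tac1, the precursor of substance P, was at 0.36 ± 0.17, Cartpt at 0.22 ± 0.13 and Vip, a peptide of cortical-type interneurons, at 0.20 ± 0.11, all overlapping. Interneuron class genes were higher in 10 of 12 cases (median 0.12), a list that shares members with the neuropeptides, Sst, Tac1 and Vip among them. Calb1, a calcium-binding protein gene taken from the hippocampal list, had 127, 121, 112, 137 and 128 CPM in blast and 116, 99.0, 110, 103 and 101 CPM in sham (0.24 ± 0.066), where sham library Amy_11 was the only one within the blast range.

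The cyclic AMP response element is the palindrome TGACGTCA, and the somatostatin gene is a textbook case of a neuropeptide gene that carries it. It was in 4 of 14 neuropeptide promoters matched (28.6%, Sst, Cartpt, Vgf and Scg2) and in 1.83% of all RefSeq promoters of that length. Sst (chr11:90461296-90461595, plus strand) and Cartpt (chr2:32991186-32991485, minus strand) are shown as the neuropeptide genes named above that hold it, in build GRCr8 with the element in capitals.
Sst: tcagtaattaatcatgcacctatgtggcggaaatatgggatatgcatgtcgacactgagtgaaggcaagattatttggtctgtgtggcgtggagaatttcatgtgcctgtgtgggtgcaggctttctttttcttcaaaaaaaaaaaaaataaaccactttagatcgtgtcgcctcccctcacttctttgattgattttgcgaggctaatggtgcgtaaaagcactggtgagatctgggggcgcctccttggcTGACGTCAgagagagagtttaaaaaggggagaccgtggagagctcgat
Cartpt: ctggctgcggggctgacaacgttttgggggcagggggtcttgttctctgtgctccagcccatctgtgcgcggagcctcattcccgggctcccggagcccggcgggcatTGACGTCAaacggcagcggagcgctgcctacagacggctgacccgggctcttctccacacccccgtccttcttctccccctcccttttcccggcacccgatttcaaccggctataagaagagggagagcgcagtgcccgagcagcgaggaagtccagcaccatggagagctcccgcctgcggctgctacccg
The immediate early genes, many of which answer cyclic AMP and calcium through this element, held it in 4 of 18 promoters (22.2%). Of 24 such genes 16 were lower and 8 higher. Their median was -0.034 and ran from -0.10 to 0.020 with 1 library left out. Npas4, an activity-induced transcription factor, was at 0.85 ± 0.43 through blast libraries Amy_4 and Amy_8, at 10.7 and 10.5 CPM, and Jund at -0.25 ± 0.083.

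Genes of receptors gave single members without a shared direction. Grm2, a presynaptic metabotropic glutamate receptor, had 52.9, 41.5, 39.4, 55.8 and 51.3 CPM in blast and 58.5, 26.4, 21.6, 31.3 and 19.7 CPM in sham. Sham library Amy_11 held the highest value of all and the other 4 sham libraries lay below every blast library (0.62 ± 0.24). Adcyap1r1, the receptor of the peptide PACAP, which is linked to stress responses in the amygdala and the neighbouring bed nucleus, had 346, 324, 361, 358 and 357 CPM in blast and 372, 369, 436, 383 and 445 CPM in sham, without overlap (-0.20 ± 0.066). Gabbr1, a subunit of the metabotropic GABA receptor, was at -0.17 ± 0.058, the serotonin receptor Htr1b at -0.42 ± 0.16 and Mgll, which breaks down an endocannabinoid, at -0.25 ± 0.085, all with overlapping groups. Receptor lists as wholes were balanced, with 12 of 23 ionotropic glutamate receptor genes and 8 of 18 GABA receptor genes higher.

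Genes induced by glucocorticoids were lower in 13 of 19 cases with a median of -0.15 that was -0.087 without sham library Amy_33. At an unadjusted p under 0.05, 3 were lower (15.8%, against 4.45% of all genes). Per1, which is both a clock gene and a direct glucocorticoid target, had 70.7, 70.9, 87.5, 85.3 and 91.4 CPM in blast and 110, 103, 93.8, 101 and 93.1 CPM in sham. The groups did not overlap, with blast library Amy_666 just below sham library Amy_33 (-0.30 ± 0.082, edgeR adjusted p = 0.459). Hif3a, an oxygen-regulated transcription factor gene that glucocorticoids raise in several tissues, had 2.07, 1.82, 3.14, 4.28 and 3.77 CPM in blast and 5.86, 3.26, 4.12, 8.85 and 11.2 CPM in sham, with overlap through sham libraries Amy_13 and Amy_14 (-1.14 ± 0.34). Sgk1, the serum- and glucocorticoid-induced kinase, was at -0.49 ± 0.19. Tsc22d3, the leucine zipper gene GILZ, had 51.5, 48.5, 56.5, 52.0 and 52.0 CPM in blast and 63.2, 48.8, 49.3, 72.2 and 68.6 CPM in sham, with sham libraries Amy_13 and Amy_14 at the blast level (-0.22 ± 0.11, unadjusted p = 0.0597). The score of the list was -0.12, -0.21, 0.042, -0.15 and 0.069 in blast and 0.17, -0.039, -0.13, 0.14 and 0.22 in sham. The glucocorticoid response element, searched as GNACA and TGTNC spaced by 3 free bases, was found in 0 of 12 promoters of the list matched and in 0.439% of all promoters, in windows that hold no distal elements.

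Clock genes were lower in 16 of 21 cases with a median of -0.13, 3 at an unadjusted p under 0.05 (14.3%, against 4.45% of all genes). These were Per1, Per2 at -0.24 ± 0.10 and Nr1d2, a nuclear receptor that represses transcription in the clock, at -0.19 ± 0.078, and Tef, a leucine zipper output gene, was at -0.12 ± 0.060. The sources used here do not give the time of day at death, so its part cannot be told apart from that of the exposure if it differed. The E-box CACGTG, bound by the clock activators, was in 4 of 15 clock promoters matched (26.7%, Tef, Bhlhe40, Bhlhe41 and Ciart) and in 6.42% of all promoters. Tef (chr7:115206577-115206876, plus strand) is shown as the one of these named for its fold change, with the E-box in capitals.
Tef: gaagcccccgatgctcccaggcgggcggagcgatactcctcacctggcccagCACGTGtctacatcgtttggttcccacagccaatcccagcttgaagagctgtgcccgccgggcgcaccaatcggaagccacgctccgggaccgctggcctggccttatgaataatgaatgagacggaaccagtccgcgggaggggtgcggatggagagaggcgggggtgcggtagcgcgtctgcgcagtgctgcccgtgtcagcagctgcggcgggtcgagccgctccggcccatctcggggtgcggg

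Immune lists had medians of 0.15 or less, while single members ranged more widely. Log2 fold changes ran from -0.23 to 1.88 in complement genes and from -0.95 to 0.56 in antigen presentation genes. In interferon response genes they ran from -0.66 to 0.41. Genes of class I and II antigen presentation were higher in 15 of 19 cases with a median of 0.15 (0.27 without blast library Amy_88). At an unadjusted p under 0.05, 2 were higher (10.5%, against 4.22% of all genes). Cd74, the invariant chain of class II, had 35.4, 22, 27.9, 17.3 and 34.7 CPM in blast and 16.3, 18.6, 27.2, 14.8 and 25.5 CPM in sham (0.42 ± 0.21). Complement genes were higher in 11 of 17 cases (median 0.13, or 0.056 without sham library Amy_15), with the protease C1s at 0.41 ± 0.12. Interferon response genes were higher in 11 of 20 (median 0.052, but -0.10 without blast library Amy_666). Ifit3, an antiviral gene of that list, went against it at 1.61, 1.19, 1.46, 1.98 and 1.98 CPM in blast and 2.35, 2.35, 2.02, 3.50 and 2.79 CPM in sham, without overlap (-0.66 ± 0.23), and Stat2 was at -0.23 ± 0.087. Among matrix genes, Hapln4, which links hyaluronan to proteoglycans in perineuronal nets, was at 0.44 ± 0.11, and Hapln2, its relative at myelinated nodes, at 0.35 ± 0.14. Ncan, a proteoglycan of the same nets, was at -0.21 ± 0.075.

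The authors' deposited table gave an adjusted p for 2096 genes and held 17 with a value under 0.05 (0.811%), 2 higher in blast and 15 lower. All 17 had an unadjusted edgeR p under 0.05 in the same direction, and the groups did not overlap for 8. The higher ones were Atp6v0c and Hapln4, at 0.22 and 0.33 in the authors' deposited table, smaller than edgeR's 0.24 and 0.44. The lower ones with a name of known function included Mast2, a microtubule-associated kinase with 206, 182, 202, 206 and 203 CPM in blast and 230, 225, 242, 234 and 231 CPM in sham, without overlap (-0.22 ± 0.052 by edgeR). Agpat3, an acyltransferase of phospholipid synthesis, at -0.24 ± 0.059, Abcd3, a transporter of the peroxisomal membrane, at -0.26 ± 0.066, Cbx6, a Polycomb protein, at -0.27 ± 0.071, Csnk1g2, a casein kinase, at -0.21 ± 0.056, and the membrane protein gene Tmem151b at -0.31 ± 0.075 were also apart by edgeR. Ttbk1, a tau kinase of neurons, at -0.24 ± 0.062, Chd3 and Mobp overlapped. The other 6 lower genes have no functional name: AABR07015057.1, AABR07063425.2, AABR07015079.1, AABR07015081.1 and AABR07015081.2, and the long non-coding AC134224.1 at -0.33 ± 0.088. DESeq2 called AABR07015057.1 (adjusted p = 2.81e-07), AABR07063425.2 (0.00345), Mast2 (0.0358) and Agpat3 (0.0472) lower. It called Cstb (adjusted p = 0.00222) and LOC103693430 (0.0432, at a log2 fold change of 0.52) higher.

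Some wide fold changes came from gene IDs whose values jump between libraries. Mif (chromosome 20), a cytokine gene with many processed copies, had 88 CPM in blast library Amy_4 and 1.53 to 2.11 CPM in the other 4 blast libraries, against 0.625 to 1.74 CPM in sham. Its fold change of 4.21 ± 1.21 was 0.91 without that library. Tagln3, an actin-associated neuronal gene, had 53.0 and 102 CPM in blast libraries Amy_88 and Amy_666 and 6.03 to 7.04 CPM in the other 3, against 2.64 to 7.97 CPM in sham. Rps27a, a ribosomal protein fused to ubiquitin, appears under 2 IDs, the second of them added after its values were seen, that ran in opposite directions over the libraries: the one on chromosome 14 had 189, 86.3, 69.9, 171 and 90.5 CPM in blast and 110, 81.5, 71.6, 60.7 and 70.1 CPM in sham, and the one on chromosome 5 had 28.5, 146, 180, 76.6 and 177 CPM in blast and 155, 173, 164, 158 and 191 CPM in sham. Library Amy_4 was the highest for the first ID and the lowest for the second, and library Amy_88 next to it in both. Reads of such near-identical copies may be shared out differently in each library, so these values are uncertain. Sytl2, under 1 of its 2 IDs, was apart at 5.75 to 13.5 CPM in blast and 0.0782 to 4.97 CPM in sham and is uncertain in the same way.

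The amygdala's blast effect was set against the mean effect in hippocampus, anterior cortex and cerebellum in 1 model of the 40 libraries. No gene was called (smallest adjusted p 0.102, edgeR), and 226 of 16378 genes had an unadjusted p under 0.05 (1.38%), so no difference below is shown to be particular to the amygdala. Shisa3 was at 1.38 ± 0.25 in amygdala, against -0.090 ± 0.45 in hippocampus, 0.19 ± 0.24 in anterior cortex and 1.00 ± 0.44 in cerebellum, and the difference from their mean was 1.02 ± 0.41 (unadjusted p = 0.0168). Efemp1 was at 0.82 ± 0.20 in amygdala, against -0.11 ± 0.19, 0.15 ± 0.34 and 0.24 ± 0.17 in the other 3 in the same order, a difference of 0.74 ± 0.30 (unadjusted p = 0.0205). Wdr54, at -1.39 ± 0.28 in amygdala, was higher in blast in the other 3, at 0.91 ± 0.61, 0.82 ± 0.60 and 0.94 ± 0.60. Its difference was -2.27 ± 0.73 (unadjusted p = 0.00370). Exoc7, at 1.45 ± 0.32 in amygdala, changed direction between the other 3, at -1.03 ± 0.78, -0.88 ± 0.62 and 1.38 ± 0.44. AABR07015057.1 was at -0.59 ± 0.086 in amygdala, against 0.093 ± 0.15 in hippocampus, -0.43 ± 0.23 in anterior cortex and -0.10 ± 0.14 in cerebellum (difference -0.43 ± 0.20, unadjusted p = 0.0407). Atox1 and Cstb were lower in blast in hippocampus, at -0.25 ± 0.25 and -0.13 ± 0.21, and their differences of 0.46 ± 0.39 and 0.31 ± 0.34 had unadjusted p values of 0.245 and 0.356. The genes with the smallest p in this model were Mif, at a difference of 6.90 ± 1.58, and Tagln3, at 2.50 ± 0.60, both uncertain as said above. AABR07038849.1, a gene of the X chromosome without a functional name, had 18.4, 15.4, 16.7, 18.3 and 17.5 CPM in blast and 13.6, 13.5, 12.4, 14.3 and 14.6 CPM in sham amygdala, without overlap, and a difference of 0.41 ± 0.12.

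The respiratory chain list stood at different levels in the 4 regions, each with sham libraries of its own, which may come from the same animals. Its median was 0.13 in amygdala, with 71 of 77 higher, -0.11 in hippocampus, with 10 of 76 higher, 0.30 in anterior cortex, with 74 of 77, and 0.030 in cerebellum, with 57 of 76. The median difference of the amygdala from the other 3 was 0.074, and 0 members had an unadjusted p under 0.05. Myelin genes were lower in amygdala at a median of -0.10, against 0.18 in hippocampus, 0.0026 in anterior cortex and -0.054 in cerebellum. Hif3a and Per1 were lower in blast in all 4 regions, Hif3a at -1.14 ± 0.34 in amygdala, against -0.97 ± 0.40 in hippocampus, -1.72 ± 0.38 in anterior cortex and -1.33 ± 0.29 in cerebellum, and Per1 at -0.30 ± 0.082 in amygdala, against -0.25 ± 0.11, -0.23 ± 0.14 and -0.34 ± 0.13 in the same order. The differences of the amygdala from the other 3 were 0.21 ± 0.42 for Hif3a and -0.018 ± 0.14 for Per1.

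**Figure D5:**
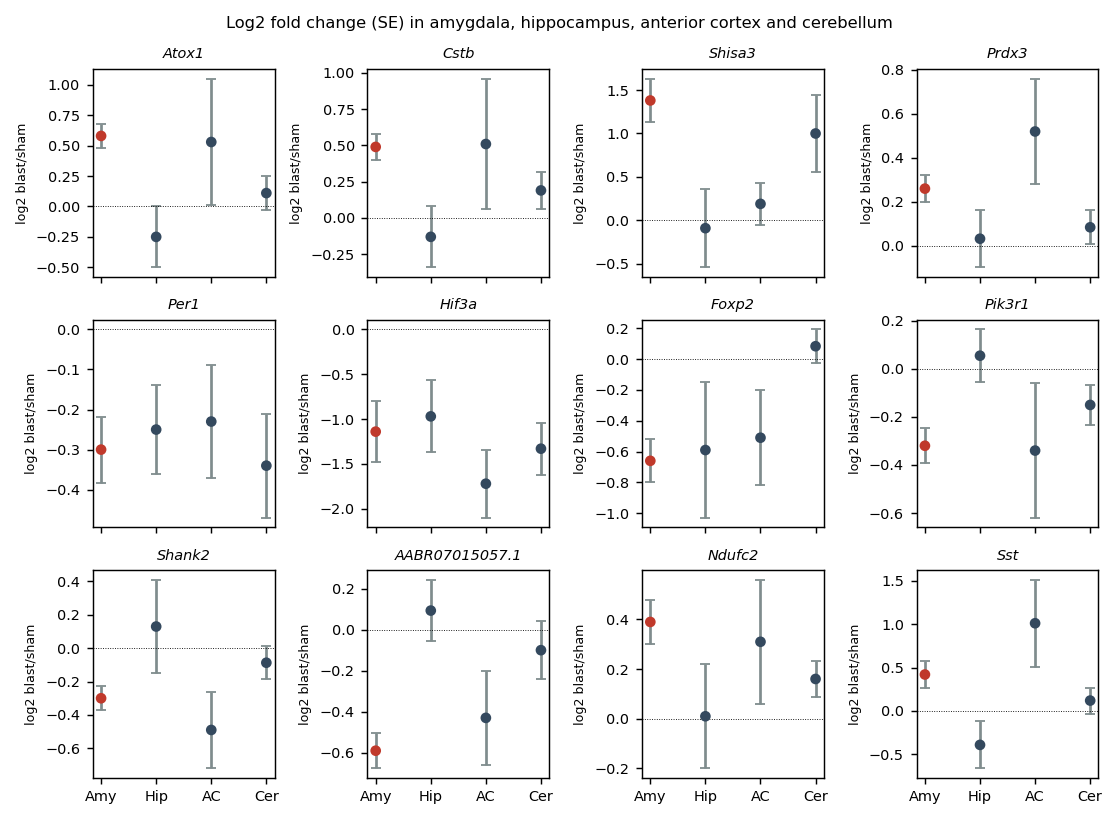
Log2 fold change of blast over sham with its SE for 12 genes in amygdala (Amy, red), hippocampus (Hip), anterior cortex (AC) and cerebellum (Cer), each from 5 blast and 5 sham libraries of that region. Per1 and Hif3a were below 0 in all 4 regions, while Atox1, Cstb and Sst were above 0 in amygdala and below 0 in hippocampus.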

How the data were processed

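RNA of 40 rat brain samples was sequenced, 10 of them amygdala, per the labels. The authors deposited a table per region with raw read counts per gene, a log2 fold change, and p-values and adjusted p-values of their own comparison, per the file headers. CASAVA is named in the submitters' processing notes. The sources used here do not give the aligner, counter, genome build, annotation or use of strand, so overlapping and antisense genes cannot be separated. Of the amygdala gene names, 25 had turned into dates and were restored from the other tables by gene ID.

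The counts were tested with edgeR 4.0.16 (R 4.3.3): filterByExpr, TMM normalization, quasi-likelihood F test, Benjamini-Hochberg adjustment over all 15280 genes tested, threshold 0.05, amygdala libraries only. The second fit held all 40 libraries. For list scores a prior count of 2 went into log2 CPM, and the length trend was a lowess curve of span 0.5 in each library. Totals of 12653267 to 16433786 counts per library limit the precision of genes of few CPM. Genes named in the text were taken from the 15 with the smallest p in each direction and from the authors' calls. Up to 5 members per list and 5 genes per direction of the second fit were also drawn on. Not every gene of these sets is named, and the text says where others were added. Members and lists were chosen with earlier results of these data known. The test was tried on simulated data. Alternatives were RLE size factors, 2 other filters, DESeq2 1.42.0, limma 3.58.1 voom without and with 1 surrogate variable (sva 3.50.0), removal of the length trend, 1 fit of all libraries, and leaving out each library.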

Additional observations from a re-analysis of the deposited data

Results flagged for a closer look

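In 24 of 368 sets of 5 libraries examined, 1 library stood far from the other 4, and chance gives about 1 in 20 sets. They are given as values only. Among list scores, these were the respiratory chain in blast library Amy_8 at 0.30, chromatin regulators and intercalated cells in blast library Amy_88 at 0.058 and 0.13, and cortical layers in sham library Amy_14 at 0.16.

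Among genes in blast libraries, Mif in library Amy_4 was at 88 CPM, Avp, the vasopressin gene, at 16.5 CPM, Rpl3 at 386 CPM and Gabbr1 at 1086 CPM, all in that library. Mast2 was at 182 CPM in library Amy_8, and AABR07015080.1, a miRNA annotation of the chromosome 14 stretch, at 135 CPM in library Amy_22. Shank2 was at 44.9 CPM and Kif1a at 1154 CPM in library Amy_88. In library Amy_666 Wdr54 was at 4.73 CPM, Pomc, the precursor of the melanocortins, at 6.83 CPM, and AABR07015078.1 of the same stretch at 41.4 CPM.

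Among genes in sham libraries, library Amy_33 held AABR07015057.1 at 675 CPM, the hypothalamic peptide genes Oxt at 25.9 CPM and Avp at 42.6 CPM, Slc2a1 at 176 CPM and Olig1 at 169 CPM. In library Amy_14 Psmc5 was at 204 CPM and Jund at 304 CPM, and in library Amy_15 the neuronal enolase Eno2 was at 37.6 CPM and Hdac5 at 176 CPM.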

How the results depend on the processing

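The count of genes called, 0, was 0 with RLE size factors, with a stricter filter, with voom and in 1 fit of all 40 libraries. It was 2 with no filter on low counts, 6 with DESeq2, 1 with voom and 1 surrogate variable and 1 with the length trend removed. Leaving out 1 library gave 0 to 2, with 2 without sham library Amy_33 (AABR07015057.1 and LOC103690054), 1 without sham library Amy_13 (Wdr54) and 1 without blast library Amy_88 (Fibcd1); LOC103690054 and Fibcd1 are named after their values were seen. Genes higher at an unadjusted p under 0.05, 645, were 168 in the fit of all 40 libraries and 458 (without sham library Amy_14) to 958 (without sham library Amy_11) with 1 library left out. Genes lower, 680, were 199 in the fit of all 40 libraries and 447 (without blast library Amy_4) to 978 (without sham library Amy_11). Against the other regions, the count of 226 was 570 with no filter and 197 to 255 with 1 library left out, and the called genes, 0, were 0 to 1. Of 2608 values of named genes under alternatives, 2605 kept their direction. Those that turned were Oxt at 0.27 without sham library Amy_33, and Avp at 1.18 without that library and 0.25 with voom; with 1 library left out Oxt ran from -3.27 to 0.27 and Avp from -2.03 to 1.18. The cause of these shifts was not tested.

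Blast and sham share no numbers. Between regions, 27 same-numbered pairs had correlations of deviations of -0.092 to 0.185, 10 of them above 0.1. Pairs of different numbers were not set beside them, so these values cannot decide whether a number marks an animal. The main fit of all libraries treated them as independent, which would not hold if regions shared animals. With the number as a replicate block, voom gave 211 genes at an unadjusted p under 0.05 and called 0, against 197 without the block.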
